A study of Mus musculus with 3 samples.

Results

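Skin papillomas labelled as overexpressing galectin-7 were compared with papillomas of wild-type mice. The 2 libraries compared, of 3 in all, were the Tg46 library, from mice that carry a transgene producing galectin-7 from the keratin 14 promoter, and the wild-type library, in which galectin-7 comes from its own gene. All mice were C57BL/6, and every tumour was raised with DMBA, a carcinogen that starts the tumours, followed by TPA, a promoter of their growth. The third library came from Lgals7-/- mice, which lack galectin-7, and its values are given beside those of the other two where they help. Each library was made from the pooled RNA of 3 papillomas, so there is 1 library a genotype, no estimate of the spread between animals and no p-value. A difference below is one between 2 libraries, and its 95% interval covers the counting error of reads alone. Reads carry no molecular identifiers and may be copies of the same molecule, so the interval can be too narrow for counts of molecules. The keratin 14 promoter is active in basal keratinocytes, the dividing layer of the epidermis. The labels give no age or sex of the mice.

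Galectins are lectins that bind beta-galactoside sugars on cell surface and matrix glycoproteins. Galectin-7 is the galectin of stratified epithelia and is known there for roles in cell adhesion, cell migration, wound closure and apoptosis. A papilloma is a benign, thickened epidermis: basal keratinocytes divide on the basement membrane, spinous cells above them take up other keratins, and the top layers cross-link proteins such as repetin, loricrin and the small proline-rich proteins into the cornified envelope. The results are therefore ordered from the galectins through the epidermal layers to the other cells of the tumour and to growth pathways.

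Deposited read counts summed to 354499 in Tg46 and 172011 in wild-type (312600 in Lgals7-/-), which is low for a transcriptome. The level that a count of 0 allows, 3 counts, was 8.95 CPM (counts scaled to library size, with TMM factors) in Tg46 and 17.4 in wild-type. The 11079 genes with at least 10 counts in 1 of the 2 libraries were tested, out of 24028 identifiers. The filter of 10 counts equals 29.8 CPM in Tg46 and 57.9 in wild-type, so genes pass it more easily through Tg46. A gene was called where the ratio of scaled counts, with 0.5 added to each, was at least 2-fold and its exact interval left out 1. By this rule 1730 genes (15.6%) were higher in Tg46 and 1725 (15.6%) lower, with a median log2 ratio of 0.14 over all tested genes. Upper-quartile scaling raised every log2 ratio by 0.24 and gave 2263 higher and 1327 lower genes, which makes 63.0% of its calls higher against 50.1% here. The other scalings lowered the ratios by 0.07 to 0.09. The even split rests on the settings in other ways: 922 genes were higher with Tg46 thinned to the wild-type total and 658 with 5 counts added. Of the called higher genes 551 were at 0 in wild-type, and of those called lower 32 were at 0 in Tg46. Among 1883 tested genes with a mean below 10 counts, wild-type scaled to Tg46, 36.7% were called higher and 0.58% lower. Calls of higher at few counts therefore depend in part on the filter. Without any filter, 12726 identifiers stood higher in CPM in Tg46 and 9738 lower. The labels do not say if reads were counted by strand, so where exons of 2 genes overlap on opposite strands, their reads cannot be told apart. Such an overlap was found for 38.8% of the genes called higher, 22.6% of those called lower and 34.3% of all tested genes, against 24.4% of all genes with a model. The gene across is named below for the genes it concerns. Of the 100 genes with most counts, 79 in Tg46 and 76 in wild-type had such an overlap. Tsix, across from Xist, held 1084 counts in Tg46 and 591 in wild-type, against 97 and 106 for Xist. The 15 reference genes of all cells summed to 155 and 75 counts, with Gapdh at 4 and 0. Whether counts came from the strand of the gene was not tested, also for genes with no overlap. Of 8 defining keratinocyte genes, 8 in Tg46 and 7 in wild-type stood above the level per kb of exon of chemosensory receptor genes. These receptors are known mainly from sensory organs, and the markers stood at up to 68.1 and 21.1 times their level (Krt14 and Krt10). The exception was Dsg3, with 1 count in wild-type. Lists of other cell types stood above that level too, such as skeletal muscle at 3.51 times in Tg46 and 3.60 in wild-type. Standing above it therefore does not single out keratinocytes. Transcripts of Y-linked genes were at 0 in all libraries, for each of the 8 genes listed.

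**Figure D1:**
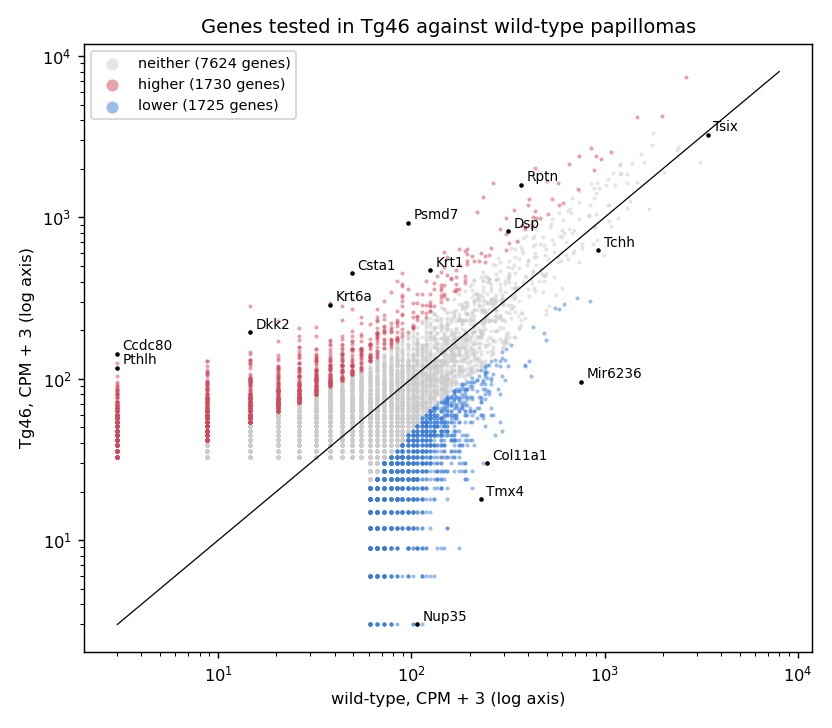
CPM plus 3 in wild-type (horizontal, log axis) and Tg46 (vertical, log axis) of the 11079 tested genes. Red points are the 1730 genes called higher in Tg46, blue points the 1725 called lower and grey points the rest; black dots are named genes, and the line marks equal levels.

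The galectin transcripts were sparse, and neither the transgene nor the deletion could be read from them. Lgals7 held 4 counts in Tg46, 0 in wild-type and 2 in Lgals7-/-, and its ratio in Tg46 over wild-type had a lower 95% bound of 0.34 and no upper one. The library labelled Lgals7-/- thus held more Lgals7 counts than wild-type, and at these counts the genotype labels could not be checked. The genotype names below are those of the labels. Of 11 galectin genes found, 6 were tested. Lgals9, which encodes galectin-9, a galectin of immune regulation, held 17 counts in wild-type, 7 in Tg46 and 1 in Lgals7-/-. It was 4.53-fold lower in Tg46 (ratio 0.221, 0.0744 to 0.539). Lgals2 held 1 count in wild-type, 13 in Tg46 and 11 in Lgals7-/-, and was called higher at a ratio of 4.64 (1.01 to 285), but its exons overlap those of Cdc42ep1. Galectin-3, the other abundant epidermal galectin, was not tested: Lgals3 held 7, 8 and 4 counts in wild-type, Tg46 and Lgals7-/-. Lgals4 (5 and 23 counts in wild-type and Tg46), Lgals8 (14 and 21, overlapping Heatr1), Lgalsl (10 and 13) and Lgals3bp, a secreted galectin-binding glycoprotein (2 and 14), were called in neither direction. All 11 genes together held 105 counts in Tg46 and 60 in wild-type, a ratio of 0.902 (0.651 to 1.26).

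Counts were summed over every found member of 60 gene lists and of the chemosensory receptor genes, with no filter on low counts. The 1492 receptor genes, of olfactory, vomeronasal, taste and trace amine receptors known mainly from sensory organs, give a level to set beside the others. They are not taken to be silent in skin. Per kb of exon they held 2.37 CPM in Tg46 and 3.25 in wild-type, a ratio of summed counts of 0.728 (0.695 to 0.763). Lists are also given after centring on genes of like transcript GC content, because the ratio followed GC content over all genes.

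**Figure D2:**
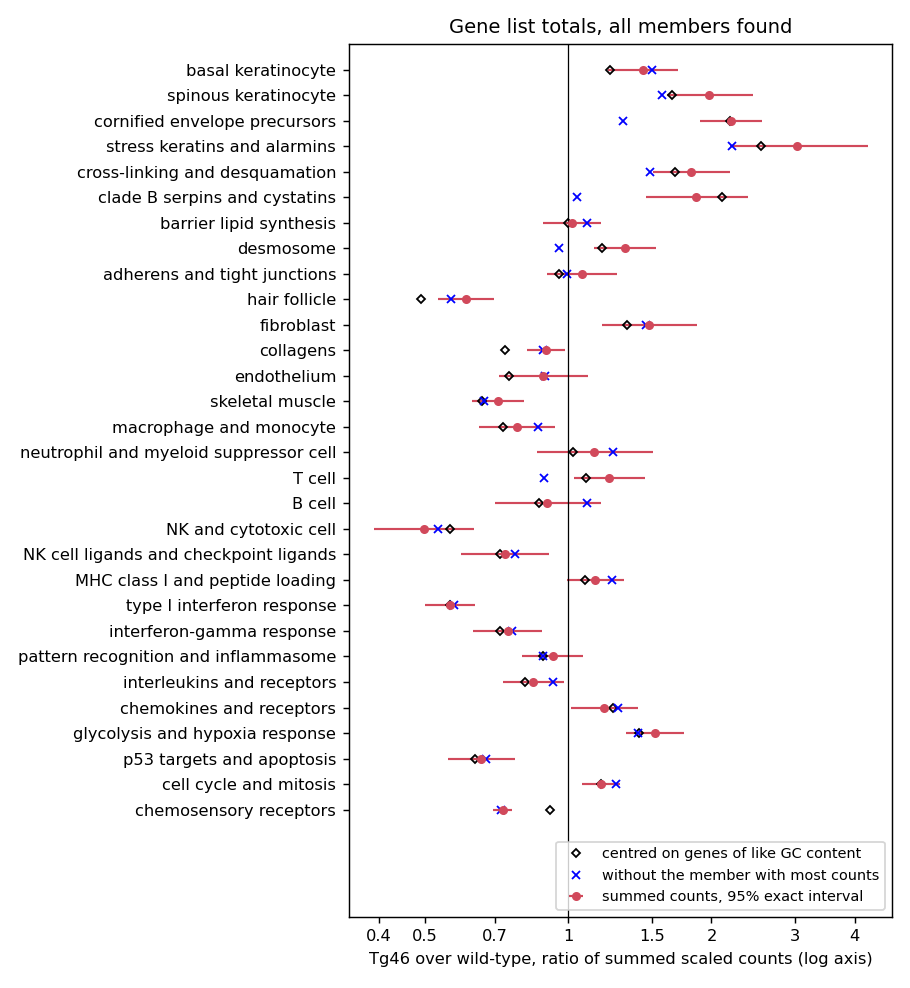
Ratio of summed scaled counts in Tg46 over wild-type (log axis) for 30 of the lists. Red points carry exact 95% intervals; open diamonds are ratios centred on GC content and blue crosses leave out the member with most counts. Stress keratins and alarmins (3.02) stand farthest to the right and the NK and cytotoxic list (0.497) farthest to the left.

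The main keratin pairs of the basal and spinous layers were higher in Tg46. Krt14, the partner keratin of the basal layer, held 95 counts in Tg46, 20 in wild-type and 81 in Lgals7-/-, and was 2.40-fold higher than wild-type (1.5 to 4.19). Krt5, its type II partner, held 32, 7 and 20 counts in the same order, a ratio of 2.23 (1.02 to 6.33), with an overlap with Gm44323. Tg46 was thus above wild-type for both genes, and the interval of Krt5 came close to 1. Also called higher were Col17a1, a hemidesmosome collagen (64 counts against 16), Itga3 (23 against 3) and Itgb1 (30 against 6), which encode an integrin pair of the basement membrane. In all, 5 of the 12 tested basal genes were called higher, 0 lower and 7 neither, beside 15.6% of all tested genes in each direction. After centring on genes of like GC content, only 1 was called higher and 0 lower. Among the 7 were Trp63, the master regulator of stratified epithelia (21 counts in Tg46 and 17 in wild-type), and Dst, a plakin of hemidesmosomes with the most counts of the list (104 and 44, overlapping Gm26788). Krt15, a further basal keratin, was also among them at 11 and 1. The 13 basal genes summed to 520 counts in Tg46 and 187 in wild-type, a ratio of 1.43 (1.21 to 1.70).

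The spinous genes showed a larger ratio of their total. Krt1, the main type II keratin of suprabasal cells, held 156 counts in Tg46, 21 in wild-type and 132 in Lgals7-/-, and was 3.75-fold higher than wild-type (2.42 to 6.36). Its partner Krt10 held 111, 25 and 96 counts, a ratio of 2.25 (1.47 to 3.69), with an overlap with Gm11940. Sbsn, which encodes suprabasin, held 61 against 5 counts and was 5.76-fold higher (2.55 to 20.1), and Krt78 held 23 against 1. Of 11 tested genes 4 were higher and 7 neither, with a median log2 ratio of 0.27. Over all tested genes 15.6% were called in each direction. Krt2, the keratin of the upper epidermis, was one of the 7 at 19 and 16 counts, as were Krtdap (10 and 8), Krt77 (10 and 4) and Krt80 (13 and 7, overlapping Gm35853). The 12 genes summed to 449 and 117 counts, a ratio of 1.98 (1.61 to 2.45), or 1.57 (1.25 to 2.0) without Krt1. Both keratin layers were higher in Lgals7-/- than in wild-type as well, at 485 and 403 counts. The 2 comparisons share the wild-type library, so a low wild-type library and 2 high tumour libraries cannot be told apart.

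**Figure D3:**
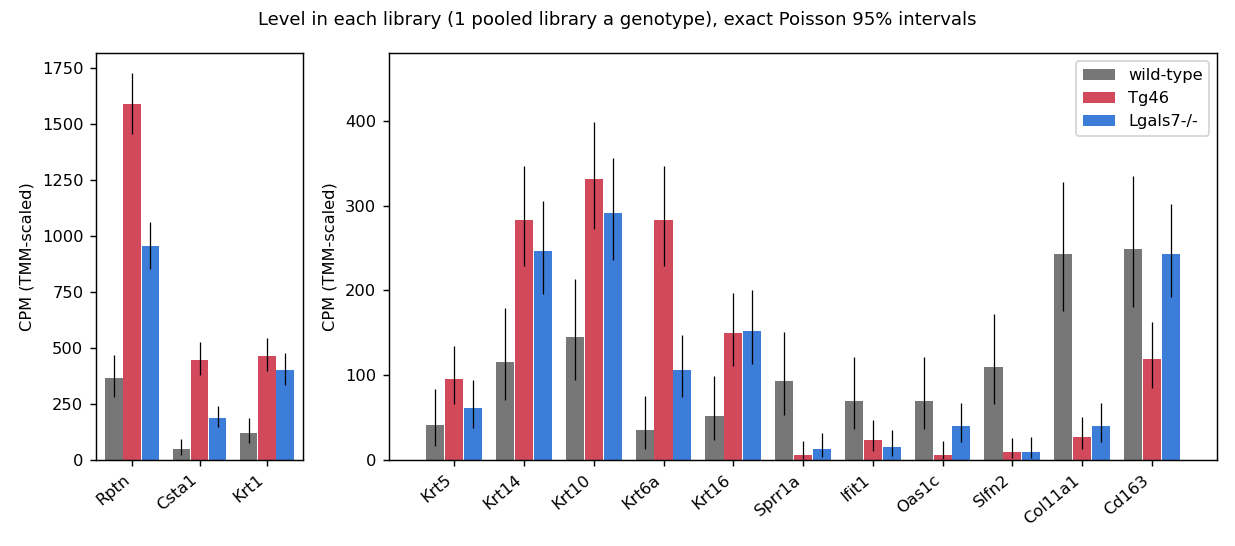
CPM of 14 genes in wild-type, Tg46 and Lgals7-/- (1 pooled library each; bars start at 0, error bars are exact Poisson 95% intervals). The keratin genes, Rptn and Csta1 are lowest in wild-type, and Sprr1a, Ifit1, Oas1c, Slfn2 and Col11a1 are highest there.

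The cornified envelope list was led by 1 gene. Rptn encodes repetin, a fused-type S100 protein of the cornified envelope (Entrez gene on chr3:93393699-93399442, plus strand, mm10), and held 533 counts in Tg46, 63 in wild-type and 314 in Lgals7-/-. It was 4.33-fold higher in Tg46 than in wild-type (3.35 to 5.76). The 44 genes summed to 919 and 216 counts, a ratio of 2.19 (1.89 to 2.56), and to 1.30 (1.08 to 1.58) without Rptn. Of 12 tested genes 7 were higher and 2 lower, beside 15.6% of all tested genes in each direction. Besides Rptn the higher ones were Flg2, a filaggrin relative (44 against 5 counts, 4.17-fold, 1.80 to 14.7), the late envelope genes Lce1a1 (16 against 0, at least 2.75-fold) and Lce1e (10 against 0, at least 1.72-fold), and 3 of the small proline-rich family. Of these Sprr2i held 26 counts against 0 and was at least 4.47-fold higher, Sprr2k held 55 against 13, and Sprr2j-ps is a pseudogene whose reads can be shared with its near-identical relatives. Those called lower were Sprr1a, an early envelope protein induced by injury (2 counts against 16, 12.8-fold lower), and Crnn, which encodes cornulin (7 against 14, 3.75-fold lower). Ivl, which encodes involucrin, was called in neither direction at 63 and 23 counts. The list therefore held members at both ends, and the members without counts are a large part of it: 21 of the 44 genes were at 0 in wild-type and 6 in Tg46.

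The AP-1 transcription factor, which TPA activates, binds TGANTCA best with C or G in the middle, and the promoters are shown because many envelope genes carry these letters. Of 40 envelope genes with an entry in the RefSeq promoter table (GRCm38.p6, from 250 bases before to 50 bases after the gene start), 14 (35%) held TGANTCA on either strand, against 8.97% of all 27025 promoters of that table. The 14 genes with it summed to 765 counts in Tg46 and 146 in wild-type, a ratio of 2.70 (2.26 to 3.25), most of it from Rptn. Split by the middle base, a step added after the data were seen, 10 genes (25%) held C or G there, against 5.95% of all promoters, and summed to 174 and 63 counts, a ratio of 1.42 (1.06 to 1.93). The other 4, Rptn among them, held A or T (10%, against 3.30% of all promoters) and came to 3.67 (2.91 to 4.68). Rptn held 533 of their 591 counts in Tg46 and 63 of their 83 in wild-type. Their ratio without Rptn was not computed, so no difference by middle base is read from the split. The 26 genes without the motif summed to 121 and 62, a ratio of 1.01 (0.735 to 1.39). Both Sprr1a and Crnn, the members called lower, carry the letters too, so presence of the motif did not fix a direction. The sequences just before the starts of Rptn (chr3:93393569-93393698, plus strand), Sprr2i (chr3:92407781-92407990, plus strand) and Sprr1a (chr3:92485882-92486041, minus strand) are printed 5′ to 3′, with matches in capitals.
Rptn: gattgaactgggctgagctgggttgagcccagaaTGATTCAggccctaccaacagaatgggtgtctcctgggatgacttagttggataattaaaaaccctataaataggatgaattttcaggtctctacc
Sprr2i: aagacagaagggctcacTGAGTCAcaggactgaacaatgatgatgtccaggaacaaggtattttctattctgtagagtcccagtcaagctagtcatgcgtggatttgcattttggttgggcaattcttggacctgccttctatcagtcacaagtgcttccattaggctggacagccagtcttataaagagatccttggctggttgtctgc
Sprr1a: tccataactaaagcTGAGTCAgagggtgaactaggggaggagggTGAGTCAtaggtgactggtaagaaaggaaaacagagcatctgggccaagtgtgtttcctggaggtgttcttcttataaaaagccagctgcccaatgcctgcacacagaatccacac
Sprr1a holds 2 matches and Sprr2i 1, all with C or G in the middle, and Rptn holds 1 with T. A match describes letters and is not a measured binding site.

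The list of stress keratins and alarmins, genes of stressed and wounded epidermis, had the highest ratio among the lists shown, and its called genes were all keratins. Krt6a, a keratin of hyperproliferative skin, held 95 counts in Tg46, 6 in wild-type and 35 in Lgals7-/-, a ratio of 7.57 (3.61 to 22.8), with an overlap with Gm49428. Krt6b (51 against 9 counts, 2.79-fold, overlapping Gm44383), Krt16, the partner keratin of the Krt6 group (50 against 9, 2.74-fold), and Krt17 (17 against 1, 6.01-fold, 1.37 to 366) were also called higher. Krt6a and Krt6b are close copies, and reads may be shared between them. Of 5 tested genes 4 were higher and 0 lower, beside 15.6% of all tested genes in each direction. Defb14, a beta-defensin, was neither at 11 and 3 counts. The other alarmins had too few counts to be tested, among them Lcn2 (9 against 1) and Slpi (1 against 6). The 16 genes summed to 258 and 44 counts, a ratio of 3.02 (2.19 to 4.26). Over the 13 genes with no opposite-strand exon it was 2.10 (1.36 to 3.36).

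Genes that cross-link and shed the envelope were higher as a total, 527 counts against 150, a ratio of 1.81 (1.51 to 2.19), with 3 of 19 tested genes called higher, a share near the 15.6% of all tested genes, and 0 lower. Spink5, which encodes the LEKTI inhibitor of skin kallikreins, held 135 counts in Tg46, 14 in wild-type and 85 in Lgals7-/-, a ratio of 4.82 (2.86 to 9.34). Tgm1, the transglutaminase of the envelope, held 25 against 2 (overlapping Gm49067), and Ctsd, a lysosomal protease, 15 against 0 (at least 2.58-fold). Csta1, a cystatin A gene that inhibits cysteine proteases, held 150 counts in Tg46, 8 in wild-type and 62 in Lgals7-/-, a ratio of 9.13 (4.78 to 22.8). The clade B serpins and cystatins had a ratio of 1.86 (1.46 to 2.39), and of 1.04 (0.790 to 1.39) without Csta1. Serpinb10, annotated as a polymorphic pseudogene, was called lower there, at 4 counts against 12.

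Desmosome genes were called in either direction about as often as genes at large. Dsp, which encodes desmoplakin, held 274 counts in Tg46, 54 in wild-type and 203 in Lgals7-/-, a ratio of 2.60 (1.95 to 3.57), with an overlap with Gm10129. Dsg3, the desmoglein of lower layers, held 20 against 1 and Ppl, which encodes periplakin, 68 against 11. Lower were Dsg4, the desmoglein of the hair shaft (17 against 49 counts, 5.49-fold), Pkp1 (21 against 31, 2.84-fold) and Dsg1c (4 against 10, 4.53-fold). Of 18 tested genes 3 were higher, 3 lower and 12 neither, shares near the 15.6% of all tested genes in each direction. The list's total ratio of 1.32 (1.13 to 1.53) turned to 0.954 (0.799 to 1.14) without Dsp. Transcription factors of keratinocyte fate held 6 genes called higher and 3 lower among 20. Klf4, a factor of barrier formation, held 32 counts in Tg46, 3 in wild-type and 7 in Lgals7-/-, and was 4.79-fold higher (1.72 to 28.1). Gata3 (27 against 2, overlapping Gm13256) and Tfap2a (42 against 9, overlapping Gm26688) were higher, as was Cebpb (23 against 0, overlapping Tmem189). Ehf (9 against 23, 4.80-fold) and Maf (6 against 11, overlapping Gm15655) were among the lower ones. The total was 1.22 (1.03 to 1.45), and 0.945 with no opposite-strand exon. Lipid barrier genes came to 1.02 (0.886 to 1.17). Among them Cers3, a ceramide synthase, held 39 counts against 3 (5.82-fold higher, 2.13 to 33.9), Elovl4, an elongase of very long fatty acids, 26 against 3, and Acer1, a ceramidase, 4 against 17 (7.54-fold lower, overlapping AC073683.1).

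Genes of the hair follicle were lower. The 31 genes summed to 478 counts in Tg46, 405 in wild-type and 1748 in Lgals7-/-, a ratio of 0.608 (0.532 to 0.696) in Tg46 over wild-type. Tchh, trichohyalin of the inner root sheath, held 209 counts in Tg46 and 160 in wild-type and was called in neither direction. The ratio without it was 0.566 (0.474 to 0.676). Of 14 tested genes 5 were lower, 1 higher and 8 neither, with a median log2 ratio of -0.78 against 0.14 over all genes. Over all tested genes 15.6% were called in each direction. Krt35, a hair cortex keratin, held 15 against 28 counts (3.57-fold lower) and Msx2, a homeobox factor of the hair matrix, 9 against 21 (4.39-fold lower). Krt74, of the inner root sheath keratins but annotated as a pseudogene in the mouse gene models, held 1 against 14 (18.8-fold lower). Krt32 (8 against 19) overlaps Gm11571, and Dsg4 is also a member. The higher member was Gata3, given above. The sebaceous gland list came to 1.66 (1.45 to 1.91), but Far2, which overlaps Ergic2, held 661 of its 857 counts in Tg46, and without it the ratio was 0.879 (0.694 to 1.12). In it Pparg, the adipogenic nuclear receptor of sebocytes, held 2 counts against 18 (14.4-fold lower). In the melanocyte list Kit, the receptor of stem cell factor, held 36 counts against 1 (12.5-fold, 3.13 to 753) and Mc1r 19 against 0 (overlapping Gm38092). Pmel, a melanosome protein, held 624 against 207 of the list's 755 and 249 counts, and overlaps Dgka.

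Interferon-stimulated genes were lower in Tg46 than in wild-type. Type I interferons act through a transcription factor complex that binds the interferon-stimulated response element in promoters and switches on antiviral genes. The 64 genes of this list summed to 566 counts in Tg46, 517 in wild-type and 556 in Lgals7-/-, a ratio of 0.564 (0.5 to 0.637) in Tg46 over wild-type. Scaled, these sums were 1689 CPM in Tg46, 2992 in wild-type and 1689 in Lgals7-/-, so Lgals7-/- was lower than wild-type as well. Both comparisons share the wild-type library, so a high wild-type library cannot be told apart from low Tg46 and Lgals7-/- libraries. In CPM, 39 of the 64 were lower and 23 higher. Of 32 tested genes 13 were called lower, 1 higher and 18 neither, with a median log2 ratio of -0.72. Over all tested genes 15.6% were called in each direction. Among the 87 receptor genes tested, 57 (65.5%) were called lower, with a median of -2.35, a larger share than in this list. The total, which uses no filter, was below that of the receptor genes (0.728). Over the genes without an opposite-strand exon the ratio was 0.523 (0.457 to 0.598), and centred on GC content it was 0.564. Per kb of exon the list held 3.75 times the level of the receptor genes in wild-type and 2.91 times in Tg46.

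Promoters of these genes are shown because the interferon element is common among them. Its core, searched as a pair of GAAA runs with 2 bases between them, was found on either strand in 25 of 49 listed genes with a promoter entry (51.0%), against 3.99% of all promoters. No match of this motif can contain TGANTCA or lie within it. The 25 with the motif held 208 counts in Tg46 and 203 in wild-type, a ratio of 0.528 (0.433 to 0.644), and the 24 without it 233 and 161, a ratio of 0.746 (0.608 to 0.918). These intervals overlap. In the RefSeq table (GRCm38.p6) the bases before Ifit1 (chr19:34640759-34640888, plus strand), Oas1c (chr5:120812515-120812644, minus strand) and Trim30d (chr7:104507850-104507979, minus strand) read as follows, 5′ to 3′, with matches on either strand in capitals.
Ifit1: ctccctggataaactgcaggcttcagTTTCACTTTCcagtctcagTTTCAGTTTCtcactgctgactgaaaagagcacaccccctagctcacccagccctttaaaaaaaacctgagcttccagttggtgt
Oas1c: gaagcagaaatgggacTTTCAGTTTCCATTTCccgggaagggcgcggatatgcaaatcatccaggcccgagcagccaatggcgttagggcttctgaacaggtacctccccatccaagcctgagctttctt
Trim30d: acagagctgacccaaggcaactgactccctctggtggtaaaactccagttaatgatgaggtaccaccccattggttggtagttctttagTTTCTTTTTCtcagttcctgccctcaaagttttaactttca
Ifit1 and Oas1c hold 2 matches each and Trim30d holds 1. The first match starts 104 bases before the gene in Ifit1, 114 in Oas1c and 41 in Trim30d.

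By role, sensors and effectors were among the genes called lower. Ifit1, which binds viral RNA caps, held 8 counts in Tg46, 12 in wild-type and 5 in Lgals7-/-, and was 2.85-fold lower (ratio 0.351, 0.122 to 0.914). Oas1c, of the oligoadenylate synthetase family, held 2, 12 and 13 counts (9.70-fold lower, overlapping Gm43069). Ddx58, which encodes the RNA sensor RIG-I, held 36, 41 and 19 counts and was 2.21-fold lower (ratio 0.453, 0.281 to 0.726). Tg46 was below wild-type for each of these by raw count as well, although its library is the deeper one. Slfn2, a Schlafen gene of immune cells, held 3, 19 and 3 counts (10.8-fold lower, ratio 0.0925, 0.0154 to 0.277). Ifi204, a DNA-binding HIN-200 protein, held 1, 17 and 16, and its count was low in Tg46 alone. Mx1, an antiviral GTPase (10 against 21 counts), Trim30d (14 against 27) and Stat2, the signal transducer itself (18 against 21), were also lower. So were Parp14 (23 against 32) and Herc6 (7 against 17). The 1 member called higher was Adar, an RNA editing enzyme, with 25 counts against 4 and an overlap with Chrnb2. Isg15, Ifit3, Rsad2 and Bst2 were not tested, at 0, 9, 6 and 2 counts in Tg46 and 0, 3, 5 and 1 in wild-type. Xaf1 (13 against 2) and Slfn4 (19 against 7) were called in neither direction.

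Genes of the interferon-gamma response summed to 350 counts in Tg46 and 242 in wild-type, a ratio of 0.746 (0.631 to 0.882), near that of the receptor genes at 0.728. Of 19 tested genes 6 were lower and 1 higher, beside 15.6% of all tested genes in each direction. The guanylate-binding protein genes Gbp2b, Gbp6 and Gbp10 held 4, 3 and 8 counts in Tg46 and 10, 10 and 12 in wild-type, and each was called lower. Ido1, a tryptophan-degrading enzyme, held 9 against 13 (2.76-fold lower). The receptor chains went in different directions: Ifngr1 held 8 against 13 counts (3.08-fold lower) and Ifngr2 17 against 0 (at least 2.92-fold higher).

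Natural killer and cytotoxic genes gave the lowest ratio of the lists shown, from few counts. The 39 genes summed to 135 counts in Tg46, 140 in wild-type and 206 in Lgals7-/-, a ratio of 0.497 (0.390 to 0.634). In CPM 25 genes were lower in Tg46 and 12 higher. Only 5 genes were tested, of which 2 were lower, beside 15.6% of all tested genes. They are Klra3 (1 count against 13, ratio 0.0573, 0.000933 to 0.264) and Klra7 (3 against 12, ratio 0.144, 0.0233 to 0.478), receptors of the Ly49 family, whose members are near-identical and can share reads. Defining genes of these cells were close to 0 in both libraries. Ncr1, the NK receptor NKp46, held 3 counts in Tg46 and 2 in wild-type, Prf1, which encodes perforin, 4 and 7, and Gzmb, a granzyme, 2 and 0. Per kb the list stood at 2.21 times the receptor genes in Tg46 and 3.24 times in wild-type, and Eomes, a factor of NK and T cells that overlaps Gm33460, had 13 counts against 2 and was called in neither direction. Ligands of NK and checkpoint receptors had a ratio of 0.735 (0.595 to 0.909), near the receptor genes at 0.728, with Ulbp1, a ligand of NKG2D, at 1 count against 10 and called lower. The checkpoint family genes Cd80 (12 against 0) and Cd276 (20 against 0, overlapping Gm10657) were called higher.

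Other immune lists were mixed, and their called genes stand beside 15.6% of all tested genes called in each direction. The macrophage and monocyte genes came to 0.780 (0.649 to 0.939), an interval that holds the 0.728 of the receptor genes, with 3 of 11 tested genes lower. Cd163, a scavenger receptor of tissue macrophages, held 40 counts in Tg46, 43 in wild-type and 80 in Lgals7-/- (2.08-fold lower), and Mertk, a receptor that takes up dying cells, 4, 16 and 16 (7.11-fold lower). Chil3, a chitinase-like protein, was lower too at 2 counts against 12. The general macrophage genes Adgre1 (17 and 12 counts) and Csf1r (23 and 6, overlapping Hmgxb3) were called in neither direction. T cell genes had 3 called higher and 3 lower among 16, and a total ratio of 1.22 (1.03 to 1.45) that became 0.888 (0.727 to 1.09) without Cd247, which overlaps Pou2f1. Cd4, the helper co-receptor, held 22 counts against 0 (at least 3.78-fold higher), and Il2ra, the high-affinity IL-2 receptor chain, 11 against 19 (3.29-fold lower). Ptpn22, a phosphatase that restrains lymphocyte signalling, held 0 counts against 17 and was at least 10.99-fold lower. Chemokines and their receptors came to 1.19 (1.01 to 1.40), with 3 of 14 tested genes called higher and 0 lower. The higher ones were Ccr4 (14 against 0), Ccr6 (10 against 0) and Ccr10 (18 against 1), receptors of skin-homing and barrier lymphocytes. All passed the filter through Tg46 alone, so no shared direction of these receptors is read from the calls. Interleukins and their receptors came to 0.843 (0.727 to 0.978), with 5 called higher and 6 lower of 25. IL-17 receptor chains were among the higher ones, with Il17ra at 23 counts against 1, Il17rc at 15 against 1 and Il17re at 12 against 0. These chains also passed the filter through Tg46 alone. Il1rn, the IL-1 receptor antagonist, at 1 count against 11, and Il6st, the shared gp130 chain, at 13 against 34, were lower. MHC class I genes came to 1.14 (0.993 to 1.31), with Tapbp, the peptide-loading chaperone tapasin, at 54 counts against 6 (overlapping Gm19412).

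Stromal genes did not move as a block. The fibroblast list came to 1.48 (1.18 to 1.86), with Ccdc80, a secreted matrix protein, at 47 counts in Tg46, 0 in wild-type and 29 in Lgals7-/- (at least 8.08-fold higher). Pdgfra, a receptor for platelet-derived growth factor, held 25 against 2 (overlapping Gm42802), whereas Efemp1, a fibulin, held 3 against 16 (9.14-fold lower). In contrast 8 of 38 tested collagen genes were lower and 4 higher, beside 15.6% of all tested genes in each direction. Col11a1, a fibrillar collagen, held 9 counts in Tg46, 42 in wild-type and 13 in Lgals7-/- (8.68-fold lower, ratio 0.115, 0.0473 to 0.230), and Col28a1 held 7, 25 and 10 (6.60-fold lower). Col5a3 (44 against 5) and Col4a1, of the basement membrane (35 against 2, overlapping Col4a2), were higher. The collagen total of 0.898 (0.819 to 0.985) passed to 1.06 under upper-quartile scaling. Skeletal muscle genes came to 0.710 (0.627 to 0.805), near the receptor genes at 0.728, with Myh2 at 17 counts against 34 (overlapping 9430073C21Rik) and 0 of 12 genes higher. Endothelial genes came to 0.884 (0.713 to 1.10). In pooled tumours fewer cells of a type and less RNA per cell cannot be told apart.

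Growth and stress pathways showed few shared directions, and their called genes stand beside 15.6% of all tested genes called in each direction. Glycolysis and hypoxia genes came to 1.52 (1.32 to 1.75), with 7 of 26 tested genes higher and 2 lower, but to 1.12 (0.936 to 1.35) over the 27 genes with no opposite-strand exon. Hif1a, the hypoxia factor subunit, held 119 counts in Tg46, 16 in wild-type and 41 in Lgals7-/- (3.73-fold, 2.27 to 6.93), and overlaps Gm15283. Pfkp, a phosphofructokinase, held 127 against 24 and overlaps Pitrm1. Car12, a carbonic anhydrase, was lower at 6 against 16 counts. AP-1 and immediate early genes came to 1.69 (1.23 to 2.37), with only Egr3 called (23 against 4), and Fosl2, the member with most counts, at 28 and 12. Of the Ras, MAPK and PKC genes, 5 of 29 were higher, near the 15.6% of all tested genes, and 2 lower. The higher ones were led by Rasgrp3, a Ras activator (30 against 1 count), and the lower ones by Sos1, another activator (12 against 36). Cell cycle genes came to 1.17 (1.07 to 1.29), with 9 of 41 higher and 4 lower, and to 0.949 with no opposite-strand exon. Ccna2, a cyclin of S phase, held 304 counts against 72 and overlaps Exosc9, and Birc5, which encodes survivin, 23 against 0. Kif11, a mitotic kinesin, held 10 against 26 and was lower, and Mki67, the proliferation marker, was neither at 71 and 26. Genes of p53 and apoptosis came to 0.655 (0.558 to 0.771), with 5 of 16 lower and 3 higher. Apaf1, the apoptosome scaffold (19 against 35 counts), and Mcl1, a survival protein (6 against 11), were lower, while the death effectors Bax (11 against 0) and Bak1 (19 against 1, overlapping Ggnbp1) were higher. In DNA repair 9 of 27 genes were lower and 4 higher. Atm and Atr, the damage kinases, held 26 and 33 counts in Tg46 and 49 and 44 in wild-type, with Atr overlapping 1700065D16Rik, and Primpol, a primase-polymerase, held 93 against 2 with an overlap with Cenpu. In the Wnt list Dkk2, a secreted modulator, held 64 counts in Tg46, 2 in wild-type and 68 in Lgals7-/- (13.3-fold higher, 4.38 to 139), and Lrp6, a Wnt co-receptor, held 32, 37 and 26 (2.24-fold lower).

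Among the 333 genes with 100 or more counts in either library, 103 were called higher (30.9%) and 5 lower (1.5%). This cut is on unscaled counts, and 330 genes reached it in Tg46 against 90 in wild-type. Genes therefore entered mostly through Tg46, which favours calls of higher, so the split is not read as a result. Psmd7, a lid subunit of the proteasome, led with 308 counts in Tg46, 16 in wild-type and 266 in Lgals7-/- (9.64-fold, 6.01 to 17.6), and the proteasome total of 1.56 (1.34 to 1.83) was 0.902 (0.757 to 1.08) without it. Of 16 tested subunit genes 3 were called higher and 3 lower, beside 15.6% of all tested genes in each direction. The other higher ones were Psmd6 (42 counts against 5) and Psmd1 (15 against 0, overlapping Htr2b). The 3 called lower were Psma5 (5 against 11, overlapping 1700010K24Rik), Psma7 (14 against 24) and Psmd11 (3 against 13). Wee1, a kinase that holds back mitosis, held 203, 25 and 183 counts (4.11-fold, 2.76 to 6.62), and Synrg, an adaptor of vesicle traffic, 104, 8 and 65 (6.34-fold, 3.28 to 15.9). Opposite-strand exons overlap 80 of the 103 genes called higher and 256 of all 333 (76.9%). Of the 12 leading genes 6 lie across another gene: Fam221b (543 counts against 45, Gm12481), Taf5 (446 against 40, Usmg5), Cand2 (362 against 37, Rpl32), Farsb (150 against 15, Sgpp2), Snx22 (799 against 126, Ppib) and LTO1 (560 against 86, Ccnd1). The genes across Taf5, Cand2 and Snx22, which encode an ATP synthase subunit, a ribosomal protein and cyclophilin B, are genes that most cells use, and they held 0, 10 and 4 counts in Tg46. Those called lower with 100 counts were A430090L17Rik (101 against 145, a symbol outside the naming rule and added after its values were seen), Mir6236, Tpgs2 (105 against 123, overlapping AW554918), Zyx (90 against 100, overlapping Epha1) and Xist (97 against 106, overlapping Tsix). Mir6236 is a microRNA gene on chr9:110281287-110281409 and held 31 counts in Tg46, 130 in wild-type and 21 in Lgals7-/- (8.04-fold lower, 5.46 to 12.5). Its mature sequence in RefSeq (GRCm38.p6), shown because it is the most strongly lowered of these genes, has its seed, bases 2 to 8, in capitals.
mmu-miR-6236: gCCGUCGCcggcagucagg
The counts are of the gene. Whether they come from the mature form, from a precursor or from another RNA that shares the sequence is not known from them.

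Among called genes with no opposite-strand exon, the leading ones given here held few counts in 1 of the 2 libraries compared. Pthlh, parathyroid hormone-related protein, a keratinocyte product that acts on calcium and hair, held 38 counts in Tg46, 0 in wild-type and 12 in Lgals7-/- (at least 6.53-fold higher). Fam53b (34, 0 and 28), Fcer2a, the low-affinity IgE receptor (31, 0 and 17), and Aebp1, a collagen-binding protein (30, 0 and 11), were also at 0 in wild-type. Ptpn2, a phosphatase of JAK and STAT proteins, held 42 counts in Tg46, 1 in wild-type and 36 in Lgals7-/-, and Cpeb4, which controls translation through the poly(A) tail, 42, 1 and 26. In the other direction Nup35, a nuclear pore protein, held 0 counts in Tg46, 18 in wild-type and 12 in Lgals7-/- (at least 11.6-fold lower), and Timm8a1, a mitochondrial import chaperone, 0, 17 and 0. Tmx4, a thioredoxin-like protein of the endoplasmic reticulum, held 5, 39 and 8 (13.9-fold lower, 5.96 to 49.2), and Ppp1cb, a catalytic subunit of protein phosphatase 1, 2, 25 and 13. Cts3, Mettl18, Psd4, Mptx1 and Mlf1 held 0 to 2 counts in Tg46, 13 to 30 in wild-type and 0 to 7 in Lgals7-/-. Timm8a1, Tmx4 and these last genes were thus low in Lgals7-/- as well, and both comparisons share the wild-type library.

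The ratio followed the base composition of the transcripts. Tested genes were put into 5 equal classes by transcript GC content. From the lowest class to the highest the median log2 ratio in Tg46 over wild-type was -0.39, -0.076, 0.16, 0.37 and 0.63. The share called higher went from 8.42% to 24.6% and the share called lower from 29.1% to 5.79%. In Lgals7-/- over wild-type, which shares the wild-type library, the medians went from -0.56 to 0.32. After each gene was centred on the ratio of its GC class, 1322 genes were higher and 1836 lower, and 1231 of the 1730 and 1563 of the 1725 were still called. Of the lists above, the type I interferon (0.564), NK and cytotoxic (0.565), hair follicle (0.490), cornified envelope (2.19) and stress keratin (2.54) ratios stayed on their side of 1, and that of the receptor genes came to 0.914. Other lists came closer to 1: the basal keratinocyte total went from 1.43 to 1.22 and its called genes from 5 to 1, the fate regulators from 1.22 to 1.04 and their genes called higher from 6 to 3. The collagen total went away from 1, from 0.898 to 0.735.

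**Figure D4:**
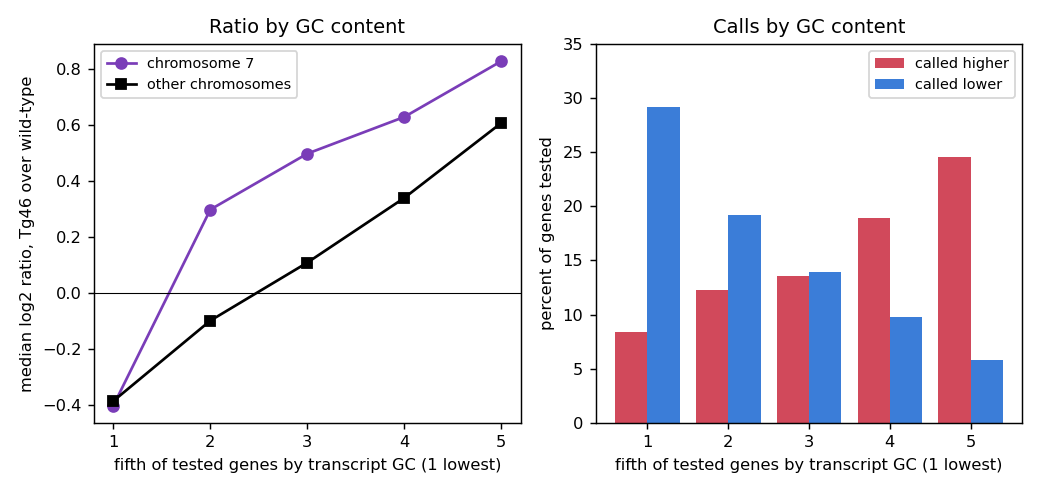
Left, median log2 ratio in Tg46 over wild-type by class of transcript GC content (1 lowest, 5 highest), for chromosome 7 and the other chromosomes. Right, percent of tested genes called higher (red) and lower (blue); called-lower shares fall from 29.1% to 5.79% across the classes.

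Chromosome 7 held more of the counts in Tg46 than in wild-type. It carries Hras, the oncogene that DMBA mutates in these tumours, and Lgals7 itself, and gains of this chromosome are known from mouse skin tumours. The genes of chromosome 7 took 8.32% of counts in Tg46, 6.89% in wild-type and 7.24% in Lgals7-/-. The ratio of Tg46 to wild-type in scaled counts was 1.28 (1.25 to 1.31), the highest of the 20 chromosomes, and that of Lgals7-/- to wild-type was 1.0. Chromosomes 11 (1.18), 10 (1.15), 17 (1.14) and 19 (1.13) followed. Of 946 tested genes of chromosome 7, 211 (22.3%) were higher and 94 (9.94%) lower, and the median log2 ratio was 0.55. Part of the excess moved with other features. Centred on GC content the ratio was 1.15, over genes with no opposite-strand exon it was 1.15, and without the 10 genes with most counts 1.21. Within the GC classes the median of chromosome 7 genes was above that of the other chromosomes in 4 of 5, and in the lowest class it was -0.40 against -0.39. Dmkn, which encodes dermokine of the upper epidermis, held 290 counts in Tg46, 66 in wild-type and 230 in Lgals7-/- (2.25-fold, 1.73 to 3.01), one of the chromosome's larger genes by count, picked after its values were seen. Hras itself was called in neither direction at 10 counts against 1. DNA was not measured, so the part of chromosome copy number was not tested, and the chromosome was singled out after all chromosome totals had been seen.

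**Figure D5:**
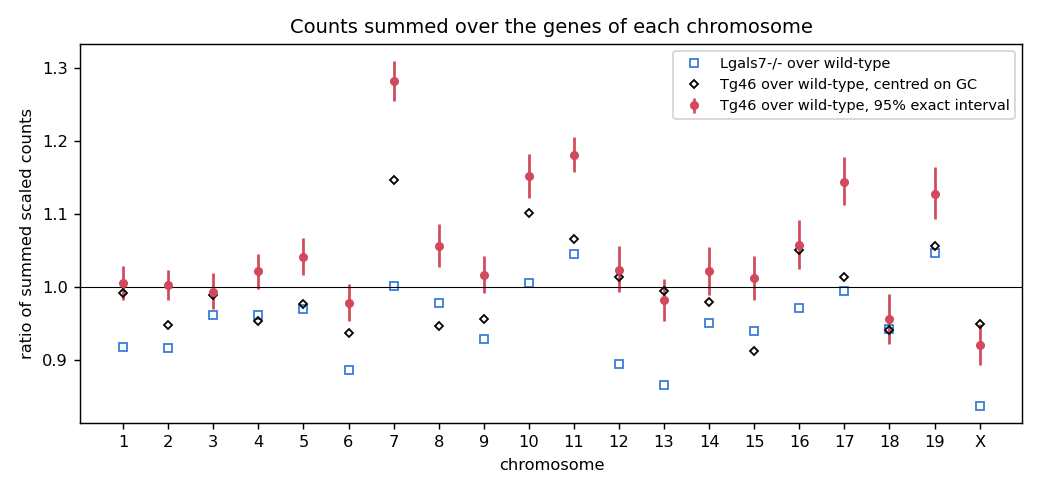
Ratio of scaled counts summed over the genes of each chromosome. Red points with exact 95% intervals are Tg46 over wild-type, black diamonds the same centred on GC content, blue squares Lgals7-/- over wild-type; chromosome 7 is highest at 1.28.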

How the data were processed

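RNA of 3 pooled papillomas per genotype was made into libraries with an Illumina RNA kit, per the labels' protocols. The authors deposited whole-number read counts per Entrez gene, on mm10 according to the submitters' processing notes. The aligner, counter, annotation and strand setting are not given in these sources. A symbol was matched for 23968 of 24028 identifiers, and a GENCODE M21 gene model for 23692; the matching was widened once after a first run. Counts were scaled by edgeR 4.0.16 TMM factors (1.00 wild-type, 0.945 Tg46, 1.05 Lgals7-/-) in R 4.3.3, which fits no test with 1 library a genotype. Calls and intervals (exact Clopper-Pearson, 95%) are defined in the text; a fold against 0 uses a floor of 3 counts per library. The scripts were tested on simulated data with known folds. Python 3.11.15, numpy 2.4.6, scipy 1.17.1, pandas 2.3.3 and matplotlib 3.10.9 were used.

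The members, the 60 gene lists and the rules were chosen with earlier results of these data known. All 60 lists were computed; those described, and the 8 whose alternatives are reported in full, were picked after their totals had been seen. A list of mitochondrially encoded genes was dropped because its symbols were not matched. Named were galectins, called genes with 100 or more counts (12 highest by the interval bound nearest 1, and those lower), called genes with no opposite-strand exon (10 each way), and in each list described up to 4 called members a direction and the one with most counts; other members named were chosen after their values were seen. Of 1847 list entries 1822 were found. Motifs were searched in 2 lists only. GC and exon length were both examined, and centring, in 20 classes, was done on GC alone, after the data had been seen. Some list members are not reported here by name.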

Additional observations from a re-analysis of the deposited data

How the results depend on the processing

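No paired analysis was possible because there is a single library for every genotype. Counts of genes called moved by over 1.5 times in 5 of 20 recomputed values. Requiring 100 counts, a filter passed more easily through Tg46, left fewer genes and gave 103 higher and 5 lower. With 5 added counts 658 were higher, among genes without an opposite-strand exon 1045, and with Tg46 thinned to the wild-type total 922. Of 531 recomputed list totals 61 moved beyond their interval and 11 reversed. Among the lists described most fully, those that moved were basal keratinocyte less the receptor rate (1.79), spinous keratinocyte without Krt1 (1.57), cornified envelope with upper-quartile factors (2.59) and without Rptn (1.30), stress keratins with no opposite-strand exon (2.10), hair follicle with upper-quartile factors (0.718) and centred on GC (0.490), and type I interferon with upper-quartile factors (0.666). Reversed were, with no opposite-strand exon and without the member with most counts, desmosome (0.962 and 0.954), sebaceous gland (0.908 and 0.879) and T cell (0.902 and 0.888), with no opposite-strand exon keratinocyte fate regulators (0.945), TGF-beta and BMP (0.934) and cell cycle (0.949), without Psmd7 proteasome (0.902), and with upper-quartile factors collagens (1.06). Chromosome 7 came to 1.21 with TMM over the 2 libraries and with total counts, 1.22 with DESeq2 1.42.0 size factors and 1.51 with upper-quartile factors. Chosen after seeing the data, it was 1.15 centred on GC, 1.15 with no opposite-strand exon and 1.21 without its 10 leading genes. The cause was not tested in any of these. Of 1620 recomputed ratios of named genes, 7 moved and 0 reversed. Depth limits the single genes most: a gene at 0 in wild-type can lie at up to 17.4 CPM.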
